A study of Saccharomyces cerevisiae with 26 samples.

Results

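The genes described here encode the enzymes and regulators of sterol and fatty acid synthesis in Saccharomyces cerevisiae. They were taken from a list of 36 pathway genes chosen by name, and all 36 of them had a spot, out of 5606 genes on the arrays. The sterol branch held 26 genes (24 enzymes and the regulators UPC2 and ECM22) and the fatty acid branch 10 (8 enzymes and the regulators MGA2 and SPT23). The study grew yeast in a galactose chemostat, a culture held at steady state by constant feed, and gave it a transient glucose pulse of 2 g/l or 0.2 g/l. Each of 26 arrays set total RNA from 1 time after a pulse (Cy5) against the same culture at t=0 (Cy3), with 14 times after 2 g/l and 12 after 0.2 g/l. No strain, genotype or dilution rate is given in the sources used here. After 2 g/l the times formed an early window (3, 5, 7 and 10 min), a middle window (15, 20, 30 and 45 min), a late window (90, 120 and 150 min) and a last window (180, 210 and 240 min). After 0.2 g/l they formed an early window (2, 4, 6, 8 and 10 min), a middle window (15, 20, 30 and 45 min) and a late window (90, 120 and 150 min). Every value is a log2 ratio to t=0, so 0 means the level before the pulse and positive values are higher.

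Both branches start from cytosolic acetyl-CoA. The sterol branch builds mevalonate, then farnesyl diphosphate, squalene and lanosterol, and ends at ergosterol, the main sterol of yeast membranes. In the fatty acid branch acetyl-CoA carboxylase makes malonyl-CoA, the fatty acid synthase complex builds saturated chains, a desaturase adds a double bond, and elongases lengthen chains into the very long ones used in sphingolipids. Several sterol steps and the desaturation use molecular oxygen and heme, and both branches are known to respond to sterol and lipid levels through membrane-tethered or sterol-sensing transcription factors.

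Each time was measured on 1 array, so neighbouring times stood in for replicates, and SDs and p-values measure only the spread between them. Dose and culture cannot be told apart. No array had its dyes exchanged, and in bulk RNA fewer cells with a transcript and less of it per cell cannot be told apart. The galactose permease gene GAL2, which glucose represses, served as a check of the labels and averaged -2.69 in the early and -4.03 in the middle window of the 2 g/l pulse, and -1.93 in the early window of the 0.2 g/l pulse. It had the lowest means of 5 galactose genes read. GAL1 had 0.11, 0.06, -0.27 and -1.09 at 3, 5, 7 and 10 min after 2 g/l. The direction of the ratios was itself inferred from the values and labels, so GAL2 is no separate check of it. The arrays of 30 and 45 min after 0.2 g/l stood apart from their window, correlating across genes at only 0.365 and 0.123 with the mean of its other arrays. GAL2 had -2.80, -0.97, 0.37 and 0.36 at 15, 20, 30 and 45 min there. The window thus joined times with GAL2 low and times with it above t=0. Whether the arrays of 30 and 45 min differ by recovery or by quality was not tested. Each member called in that window is therefore also given without both of them, a choice made after seeing the data. The median of all genes on an array reached -0.107 at 10 min after 2 g/l. Between 7627 and 9765 spots had a value per array.

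ERG7 (lanosterol synthase), ELO2 and ELO3 (the very-long-chain elongases) had the highest means among the members called, 0.95, 0.88 and 0.89 at 15 to 45 min after 2 g/l glucose. In the same window ERG28, which encodes a scaffold of the sterol demethylation complex, averaged -0.90 and ACC1, which encodes acetyl-CoA carboxylase, -0.43. The desaturase gene OLE1 fell later, to a mean of -0.78 at 90 to 150 min after 2 g/l. Within each branch some genes rose while others fell.

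Of the 33 members with at least 2 values in every window, limma called 5 higher and 3 lower than t=0 early after 2 g/l at an adjusted p under 0.05. The share called among all 5372 genes tested was 37.6% (16.8% higher and 20.8% lower). In the middle window 8 members were higher and 2 lower, against 43.8% of all genes (21.7% higher, 22.1% lower). The late window had 5 higher and 1 lower against 14.5% of all genes (9.03% higher, 5.51% lower), and the last window 1 higher and 0 lower against 8.38% (5.96% higher, 2.42% lower). In the last window 3 members had an unadjusted p under 0.05. The members' counts after 2 g/l therefore lay below or near the share of all genes called. Without single arrays the late count was 2 or 3 (2 without the 90 min array, 3 without that of 120 or of 150 min) and the last count 0 without any 1 of its arrays. The median over the 33 members was 0.050 early, 0.13 in the middle, 0.028 late and -0.017 last, and that over all genes tested was -0.036, -0.026, 0.024 and 0.048 in the same windows.

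After 0.2 g/l the early window had 5 members higher and 2 lower, against 29.8% of all genes called (18.1% higher, 11.7% lower). The middle window had 5 higher and 3 lower, against 39.5% (15.1% higher, 24.4% lower). Without the 30 and 45 min arrays it had 8 higher and 2 lower of 32 tested, and those newly called were ERG7 (0.61, adjusted p = 0.00142), ERG2 (0.50, 0.0174), IDI1 (0.50, 0.0115), FAS1 (0.47, 0.00339) and ERG5 (0.44, 0.0312). The 39.5% belongs to the fit with all arrays. No share of all genes is given here for the fit without those arrays, so its count cannot be set against one. The late window had 0 higher and 1 lower against 7.54% of all genes (3.61% higher, 3.93% lower), and 2 members had an unadjusted p under 0.05. Leaving out 1 array gave early counts of 4 (without 4 or 6 min) or 3 (without 8 or 10 min), middle counts of 5 without 15 min and 3 without 20 min, and a late count of 0 without any 1 array. The moderated F test over all windows of a pulse called 16 members after 2 g/l, against 58.5% of all genes, and 11 after 0.2 g/l, against 52.3%. Over 47 results in which a member was called in a window or a difference, 6 were kept under every alternative run. These were ERG7, ELO2, ELO3 and ACC1 in the middle window, ERG28 in the early window and OLE1 in the late window, all after 2 g/l.

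**Figure D1:**
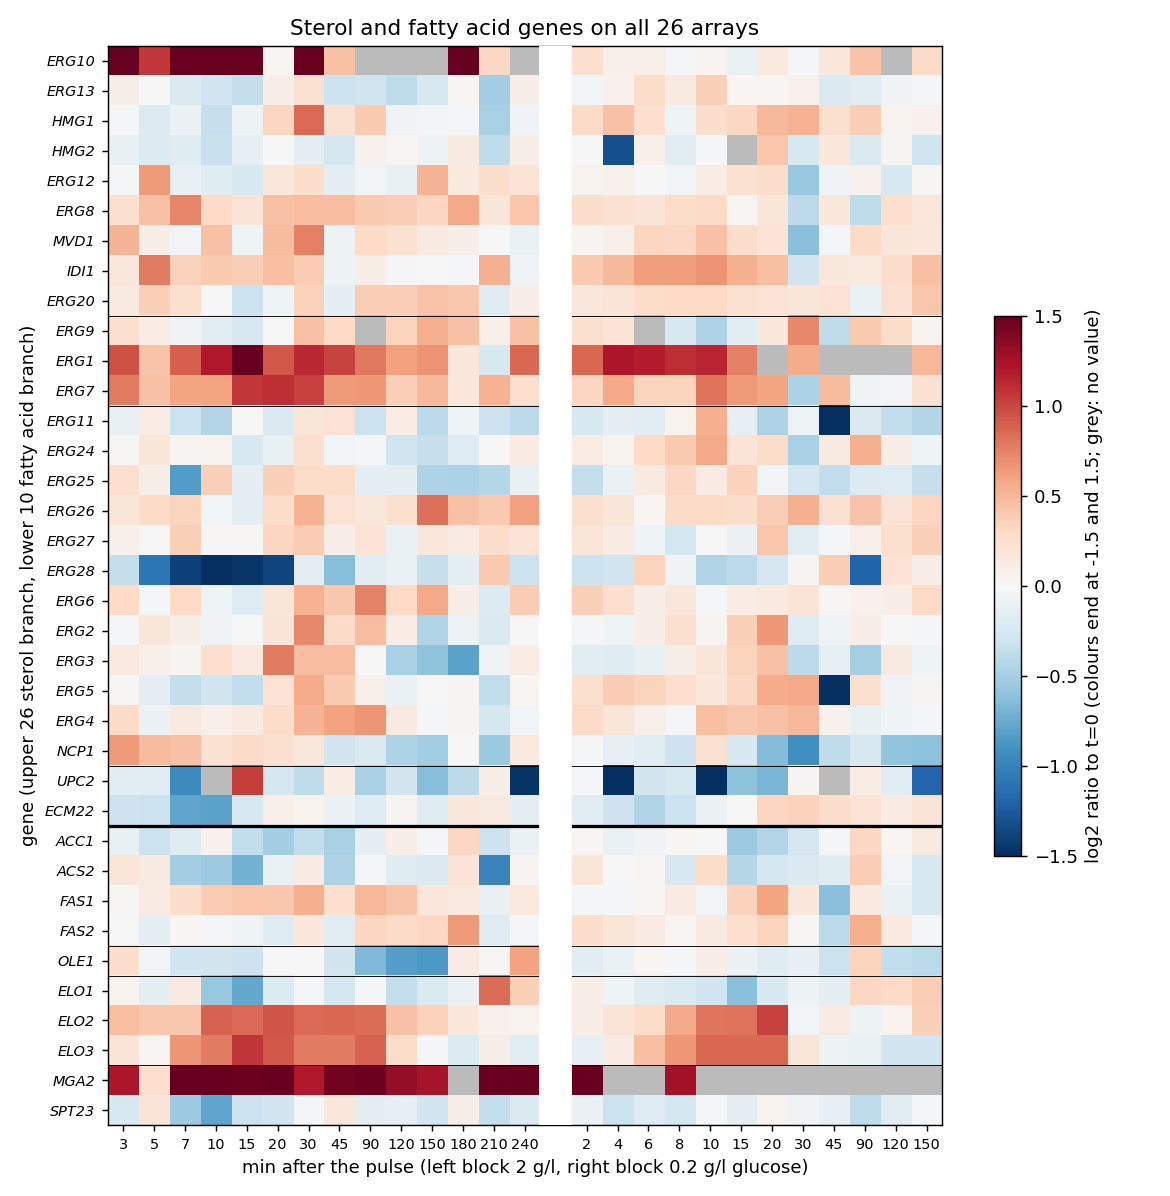
Log2 ratio to t=0 of each of the 36 genes (rows, in pathway order, sterol branch above the thick line) on each of the 26 arrays (columns, min after the pulse, 2 g/l in the left block and 0.2 g/l in the right). Red is higher and blue lower than t=0, colours end at -1.5 and 1.5, and grey cells have no value. ERG1, ERG7, ELO2 and ELO3 are mostly red over the early and middle windows of the left block, and in the right block ERG7, ELO2 and ELO3 are pale or blue on the arrays of 30 or 45 min or both. ERG28 is blue over the early part of the left block, ERG10 and MGA2, with missing cells, are red on part of the left block, and most other rows stay pale.

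The mevalonate steps turn acetyl-CoA into isoprene units. Of the 8 mevalonate genes tested, 2 rose early after 2 g/l (ERG8 and IDI1), 2 in the middle window (HMG1 and ERG8) and 1 late (ERG20), and none fell in any window. These are 25% early and 25% in the middle window, below the 37.6% and 43.8% of all genes called there. The 0.2 g/l pulse was followed by an early increase of IDI1 and ERG20, and HMG1 rose in its middle window. ERG13 (HMG-CoA synthase), HMG2 (the minor HMG-CoA reductase isozyme), ERG12 (mevalonate kinase) and MVD1 (mevalonate diphosphate decarboxylase) passed in no window, with window means between -0.31 and 0.28.

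ERG8, the phosphomevalonate kinase gene, lay above 0 on 14 of 14 arrays after 2 g/l, between 0.18 at 210 min and 0.73 at 7 min. It averaged 0.43 ± 0.22 early and 0.39 ± 0.13 in the middle window (SD, n = 4 each; adjusted p = 0.00382 and 0.00519). The ratio did not return to 0 over 240 min. With the last window as baseline in place of t=0, its early value was 0.04 (adjusted p = 0.901) and its middle value 0.003 (0.994). A lasting rise and a low level in the t=0 sample itself cannot be told apart here. ERG8 was above 0 on 10 of 12 arrays of the 0.2 g/l pulse and passed in none of its windows.

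IDI1, the isopentenyl diphosphate isomerase gene, had 0.17, 0.78, 0.35 and 0.39 at 3, 5, 7 and 10 min after 2 g/l. The 0.2 g/l pulse gave it 0.39, 0.49, 0.63, 0.63 and 0.67 at 2, 4, 6, 8 and 10 min. All early arrays of both pulses were thus above 0, with means of 0.42 ± 0.26 (SD, n = 4; adjusted p = 0.0112) after 2 g/l and 0.56 ± 0.12 (SD, n = 5; adjusted p = 0.000933) after 0.2 g/l. The 2 g/l result was lost without the 5 min array (adjusted p = 0.0936) and with the last window as baseline (0.27, adjusted p = 0.368). The 0.2 g/l result was kept without each single array but not with the late window as baseline (0.27, adjusted p = 0.397).

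HMG1, which encodes the main HMG-CoA reductase and the classical control point of the pathway, had 0.32, 0.49, 0.52 and 0.24 at 15, 20, 30 and 45 min after 0.2 g/l. Its mean there was 0.39 ± 0.13 (SD, n = 4; adjusted p = 0.015), lost without the 20 min array (adjusted p = 0.0633), the 30 min array (0.0585) or the 30 and 45 min arrays (0.0659). After 2 g/l it had -0.08, 0.32, 0.85 and 0.23 in the middle window, a mean of 0.33 ± 0.38 (SD, n = 4; adjusted p = 0.0324) that was 0.16 without the 30 min array (adjusted p = 0.341) and was also lost without the 20 min array (0.0801). HMG1 stood above its isozyme HMG2 on 9 of 14 arrays after 2 g/l and 11 of 11 after 0.2 g/l.

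ERG20, the farnesyl diphosphate synthase gene, had 0.36, 0.37 and 0.43 at 90, 120 and 150 min after 2 g/l, a mean of 0.39 ± 0.035 (SD, n = 3; adjusted p = 0.0296). Early after 0.2 g/l it averaged 0.25 ± 0.058 (SD, n = 5; adjusted p = 0.0463). The arrays of each window lay close together, but both results were lost without any 1 of their arrays (90, 120 or 150 min after 2 g/l, adjusted p from 0.117 to 0.136, and 2, 4, 6, 8 or 10 min after 0.2 g/l, from 0.0592 to 0.127). Against the last window the late value of ERG20 after 2 g/l was 0.28 (adjusted p = 0.544). ERG10, the acetoacetyl-CoA thiolase gene of the opening step, had too few values to be tested. Its 10 values after 2 g/l ran from 0.03 at 20 min to 4.20 at 30 min, with neighbouring times far apart, while its 11 values after 0.2 g/l lay between -0.10 and 0.43.

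The squalene to lanosterol steps held ERG7, the sterol gene with the highest mean among the called results. ERG7, which folds oxidosqualene into lanosterol, had 0.78, 0.44, 0.59 and 0.59 in the 2 g/l early window and 1.06, 1.10, 1.02 and 0.63 in the middle window. It then had 0.65, 0.36 and 0.49 in the late window and 0.16, 0.52 and 0.25 in the last. All 14 arrays were above 0, with the peak at 15 to 30 min. The means were 0.60 ± 0.14 early (SD, n = 4; adjusted p = 0.00202), 0.95 ± 0.22 in the middle window (SD, n = 4; adjusted p = 1.55e-05), a 1.94-fold level, and 0.50 ± 0.15 late (SD, n = 3; adjusted p = 0.0368). The early value was 0.29 against the last window (adjusted p = 0.381), and the late result was lost without the 90, 120 or 150 min array (adjusted p = 0.259, 0.0859 and 0.11).

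With the smaller pulse, 0.2 g/l, ERG7 had 0.32, 0.57, 0.34, 0.33 and 0.82 in the early window, 0.64, 0.59, -0.48 and 0.48 in the middle window, and -0.05, -0.04 and 0.23 in the late window. It was above 0 at every time to 45 min except 30 min. The early mean was 0.48 ± 0.22 (SD, n = 5; adjusted p = 0.00595), and was kept without each single array but not with the late window as baseline (0.43, adjusted p = 0.214).

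ERG1, which encodes squalene epoxidase, the oxygen-using enzyme that acts just before ERG7, could not be tested because it had 22 values and fewer than 2 in the 0.2 g/l late window. It had 0.96, 0.43, 0.90 and 1.20 early after 2 g/l, 1.70, 0.93, 1.14 and 1.02 in the middle window, 0.79, 0.61 and 0.68 late, and 0.15, -0.24 and 0.86 in the last. Its 8 values of the 0.2 g/l pulse ran from 0.49 at 150 min to 1.21 at 4 min. It was above 0 on 13 of 14 and 8 of 8 arrays with a value, and above ERG7 on 10 of 14 and 8 of 8. ERG9 (squalene synthase), the step before, passed in no window, and its values ran from -0.24 to 0.55 after 2 g/l and from -0.46 to 0.72 after 0.2 g/l.

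Of the 12 genes tested between lanosterol and ergosterol, 2 were higher and 1 lower in the 2 g/l middle window (25% against 43.8% of all genes), and 2 higher and 2 lower in the 0.2 g/l middle window (33.3% against 39.5%). ERG28 tethers ERG25, ERG26 and ERG27, the enzymes that remove methyl groups next to the sterol hydroxyl, into 1 complex. It had -0.35, -1.09, -1.40 and -1.68 at 3, 5, 7 and 10 min after 2 g/l and -1.46, -1.37, -0.14 and -0.64 at 15, 20, 30 and 45 min, and stayed between -0.34 and 0.40 afterwards. It was thus below 0 on all 8 arrays to 45 min and lowest from 5 to 20 min. The early mean was -1.13 ± 0.57 (SD, n = 4; adjusted p = 0.000928), a level 0.457 times that at t=0, and the middle mean -0.90 ± 0.63 (SD, n = 4; adjusted p = 0.00308, and 0.0661 against the last window).

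ERG28 lay, with 0.2 g/l glucose, between -0.45 and 0.37 on every array except that of 90 min (-1.20) and passed in no window. Its difference between the pulses in the early window was -0.97 ± 0.31 (SE; adjusted p = 0.156). Of its partners, ERG25 (sterol methyl oxidase) and ERG27 (ketoreductase) passed in no window, and ERG26 lay above ERG28 on 13 of 14 arrays after 2 g/l and 9 of 12 after 0.2 g/l.

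ERG26, the decarboxylase of that complex, was above 0 on 12 of 14 arrays after 2 g/l and 12 of 12 after 0.2 g/l. Its late values after 2 g/l were 0.17, 0.24 and 0.82, a mean of 0.41 ± 0.36 (SD, n = 3; adjusted p = 0.0266) that was 0.20 without the 150 min array (adjusted p = 0.362), and -0.071 with the last window as baseline. At 180 to 240 min it averaged 0.48 ± 0.12 (SD, n = 3; adjusted p = 0.0176), lost without the 180, 210 or 240 min array (adjusted p = 0.0569, 0.0894 and 0.113). In the 0.2 g/l middle window it averaged 0.35 ± 0.14 (SD, n = 4; adjusted p = 0.0137), lost without the 30 min array (0.0681) and without those of 30 and 45 min (0.0899). With the late window of that pulse as baseline, this middle value was 0.031 (adjusted p = 0.924).

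ERG3, which encodes the oxygen-using sterol desaturase, had -0.00, -0.49 and -0.60 in the 2 g/l late window and 0.15, 0.78, 0.47 and 0.46 in the middle window. The windows did not overlap. The middle mean was 0.46 ± 0.26 (SD, n = 4; adjusted p = 0.0148, and 0.11 without the 20 min array), and late minus middle was -0.83 ± 0.23 (SE; adjusted p = 0.0408). That difference was lost without the array of 20, 30, 45, 120 or 150 min (adjusted p from 0.0595 to 0.249).

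ERG4, the reductase of the final step, averaged 0.38 ± 0.22 in the 2 g/l middle window (SD, n = 4; adjusted p = 0.00743, and 0.0593 without the 45 min array). It averaged 0.35 ± 0.19 in that window with 0.2 g/l (SD, n = 4; adjusted p = 0.015). That result was lost without the array of 15, 20 or 30 min (adjusted p from 0.0546 to 0.0637) but kept without both of 30 and 45 min (0.42, adjusted p = 0.0256). ERG6, the sterol methyltransferase gene, rose late after 2 g/l with 0.74, 0.30 and 0.56, a mean of 0.54 ± 0.22 (SD, n = 3; adjusted p = 0.0074, and 0.127 without the 90 min array). Against the last window this late value of ERG6 was 0.45 (adjusted p = 0.319). ERG24, a sterol reductase gene, averaged 0.28 ± 0.21 early after 0.2 g/l (SD, n = 5; adjusted p = 0.0485), lost without the array of 6, 8 or 10 min (0.108, 0.148 and 0.216).

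NCP1 encodes the reductase that feeds electrons to the P450 enzymes ERG11 and ERG5. It had 0.64, 0.47, 0.44 and 0.22 early after 2 g/l, and after 0.2 g/l it had -0.23, -0.65, -0.93 and -0.38 in the middle window and -0.24, -0.59 and -0.61 in the late window. It was above 0 on all early arrays of the 2 g/l pulse and below 0 on all middle and late arrays of the 0.2 g/l pulse. Late after 2 g/l it was below 0 as well, with -0.22, -0.46 and -0.52, but was not called. The early mean for 2 g/l was 0.45 ± 0.17 (SD, n = 4; adjusted p = 0.00896). Those for 0.2 g/l were -0.55 ± 0.31 in the middle window (SD, n = 4; adjusted p = 0.00235, and 0.0405 without the 30 and 45 min arrays) and -0.48 ± 0.21 late (SD, n = 3; adjusted p = 0.0459). The late result was lost without the 90, 120 or 150 min array (adjusted p = 0.0684, 0.189 and 0.272). With the late window of the 0.2 g/l pulse as baseline, the middle value of NCP1 was -0.064 (adjusted p = 0.872).

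ERG11, the lanosterol demethylase gene and the target of azole antifungals, was called lower in the 0.2 g/l middle window with a mean of -1.16. Its values there were -0.12, -0.47, -0.06 and -3.98, so the call rested on the 45 min array. Without it the mean was -0.22 (adjusted p = 0.212), and without the 30 and 45 min arrays -0.29 (adjusted p = 0.172). After 2 g/l ERG11 stayed between -0.44 and 0.22. ERG5 (sterol desaturase) and ERG2 (sterol isomerase) passed in no window with all arrays, and ERG5 also had its lowest value, -1.74, on the 45 min array after 0.2 g/l.

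The sterol regulators UPC2 and ECM22 are zinc cluster transcription factors that activate sterol genes when sterols run low. ECM22 had -0.31, -0.33, -0.79 and -0.81 early after 2 g/l and -0.17, -0.31, -0.46, -0.32 and -0.09 early after 0.2 g/l. All early arrays of both pulses were below 0. The mean for 2 g/l was -0.56 ± 0.28 (SD, n = 4; adjusted p = 0.000316). That for 0.2 g/l was -0.27 ± 0.14 (SD, n = 5; adjusted p = 0.0225), and the 0.2 g/l result was lost without the array of 4, 6 or 8 min (adjusted p = 0.064, 0.105 and 0.0749). UPC2 was called lower early after 0.2 g/l (mean -1.24 ± 1.72, SD, n = 5; adjusted p = 0.0264), where its values were -0.02, -1.54, -0.27, -0.23 and -4.12. Without the 10 min array the mean was -0.52 (adjusted p = 0.214), and the result was also lost without the 4 min array (0.0762).

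Among the genes of chain synthesis, ACC1 fell while FAS1 rose. ACC1, whose product makes the malonyl-CoA that starts and extends fatty acids, had -0.37, -0.51, -0.37 and -0.49 in the 2 g/l middle window. Its mean was -0.43 ± 0.076 (SD, n = 4; adjusted p = 0.00091), a level 0.740 times that at t=0. In the same window FAS1, the beta subunit of fatty acid synthase, had 0.41, 0.40, 0.54 and 0.25, a mean of 0.40 ± 0.12 (SD, n = 4; adjusted p = 0.0135, and 0.0669 without the 30 min array). All 4 middle arrays of ACC1 were thus below 0 and all 4 of FAS1 above it, and FAS1 stood above ACC1 on 13 of 14 arrays after 2 g/l and on 6 of 12 after 0.2 g/l. With the last window as baseline, the 2 g/l middle value was 0.34 for FAS1 (adjusted p = 0.211) and -0.40 for ACC1 (0.0447).

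With 0.2 g/l ACC1 had -0.54, -0.44, -0.25 and -0.03 in the middle window, a mean of -0.31 ± 0.23 (SD, n = 4; adjusted p = 0.0138) that was lost without the 15 min array (0.1) or the 20 min array (0.071). Without the 30 and 45 min arrays it was -0.49 (adjusted p = 0.00332). FAS2, the alpha subunit that works in the same complex as FAS1, and ACS2, the acetyl-CoA synthetase gene, passed in no window, with means from -0.067 to 0.31 for FAS2 and -0.29 to 0.051 for ACS2.

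OLE1 encodes the only fatty acid desaturase of yeast, which supplies oleic and palmitoleic acid. After 2 g/l it had 0.27, -0.04, -0.28 and -0.28 early and -0.31, -0.00, 0.01 and -0.28 in the middle window. It then had -0.66, -0.83 and -0.86 at 90, 120 and 150 min and 0.13, 0.02 and 0.60 at 180, 210 and 240 min. The late arrays lay below all 11 other arrays of that pulse. The late mean was -0.78 ± 0.10 (SD, n = 3; adjusted p = 0.000398), a level 0.581 times that at t=0. Late minus middle was -0.64 ± 0.18 (SE; adjusted p = 0.0434) and last minus late 1.03 ± 0.19 (SE; adjusted p = 0.00631).

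Leaving out the 240 min array raised the adjusted p of the OLE1 difference of last minus late to 0.0539, and that of late minus middle was lost without the array of 15, 20, 30, 90, 120 or 150 min (0.0594 to 0.206). With 0.2 g/l OLE1 ran from -0.41 to 0.34 and had 0.34, -0.37 and -0.41 at 90, 120 and 150 min. It passed in no window there. In the late windows 2 g/l minus 0.2 g/l was -0.64 ± 0.19 (SE; adjusted p = 0.0725).

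The 3 elongases differ in the chains they make. ELO2 (older symbol FEN1) and ELO3 (SUR4) build very long chains, and ELO1 extends medium chains. ELO2 had 0.45, 0.40, 0.41 and 0.89 early after 2 g/l and 0.85, 0.95, 0.85 and 0.86 in the middle window. It then had 0.84, 0.44 and 0.34 late and 0.17, 0.07 and 0.05 in the last window. All 14 arrays were above 0, with a plateau from 10 to 90 min and values near 0 by 210 min. The means were 0.54 ± 0.23 early (SD, n = 4; adjusted p = 0.00612, and 0.0674 without the 10 min array), 0.88 ± 0.046 in the middle window (SD, n = 4; adjusted p = 5.59e-05), a 1.84-fold level, and 0.54 ± 0.27 late (SD, n = 3; adjusted p = 0.0311). The late result was lost without the 90 or 120 min array (adjusted p = 0.329 and 0.0928). Against the last window the early value of ELO2 was 0.44 (adjusted p = 0.185) and the late value 0.45 (0.482).

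ELO3 had 0.20, 0.03, 0.66 and 0.77 early after 2 g/l and 1.08, 0.94, 0.78 and 0.77 in the middle window, where its mean was 0.89 ± 0.15 (SD, n = 4; adjusted p = 0.000228). At 90, 120 and 150 min it had 0.88, 0.27 and -0.03. Its time course was like that of ELO2, with high values from 7 to 90 min. ELO1 passed in no window, its middle mean after 2 g/l was -0.31, and ELO2 stood above it on 12 of 14 arrays after 2 g/l and 9 of 12 after 0.2 g/l.

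With 0.2 g/l ELO2 had 0.10, 0.20, 0.27, 0.57 and 0.80 early and 0.81, 1.03, -0.05 and 0.12 in the middle window, and ELO3 had -0.12, 0.12, 0.45, 0.65 and 0.86 early and 0.87, 0.86, 0.18 and -0.08 in the middle window. Both were high from 8 to 20 min and at or below 0.18 from 30 to 120 min, times that include the arrays of 30 and 45 min that stand apart. The middle means were 0.48 ± 0.52 for ELO2 (SD, n = 4; adjusted p = 0.0125) and 0.46 ± 0.48 for ELO3 (SD, n = 4; adjusted p = 0.037), and without the 30 and 45 min arrays they were 0.92 (adjusted p = 0.000138) and 0.86 (0.0025). Both were lost without the 15 min array (0.0905 for ELO2 and 0.205 for ELO3) or the 20 min array (0.14 and 0.208). Against the late window of that pulse the middle values were 0.37 for ELO2 (adjusted p = 0.334) and 0.68 for ELO3 (0.14). Early after 0.2 g/l ELO2 averaged 0.39 ± 0.29 (SD, n = 5; adjusted p = 0.0274), lost without the 8 or 10 min array (0.109 and 0.158). At 90 min ELO2 stood at 0.84 after 2 g/l and -0.072 after 0.2 g/l, and ELO3 at 0.88 and -0.10, but neither late difference passed the test (0.43 ± 0.24 for ELO2, adjusted p = 0.394, and 0.60 ± 0.28 for ELO3, adjusted p = 0.287, SE).

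MGA2 and SPT23 encode membrane-bound activators of OLE1. SPT23 had -0.23, 0.20, -0.55 and -0.79 early after 2 g/l and was called lower there (mean -0.34 ± 0.43, SD, n = 4; adjusted p = 0.0269), lost without the 7 or 10 min array (0.147 and 0.28). MGA2 had a value on 15 arrays and was not tested. Its 13 values after 2 g/l ran from 0.25 at 5 min to 2.69 at 7 min, and its 2 values after 0.2 g/l were 2.17 and 1.26.

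**Figure D2:**
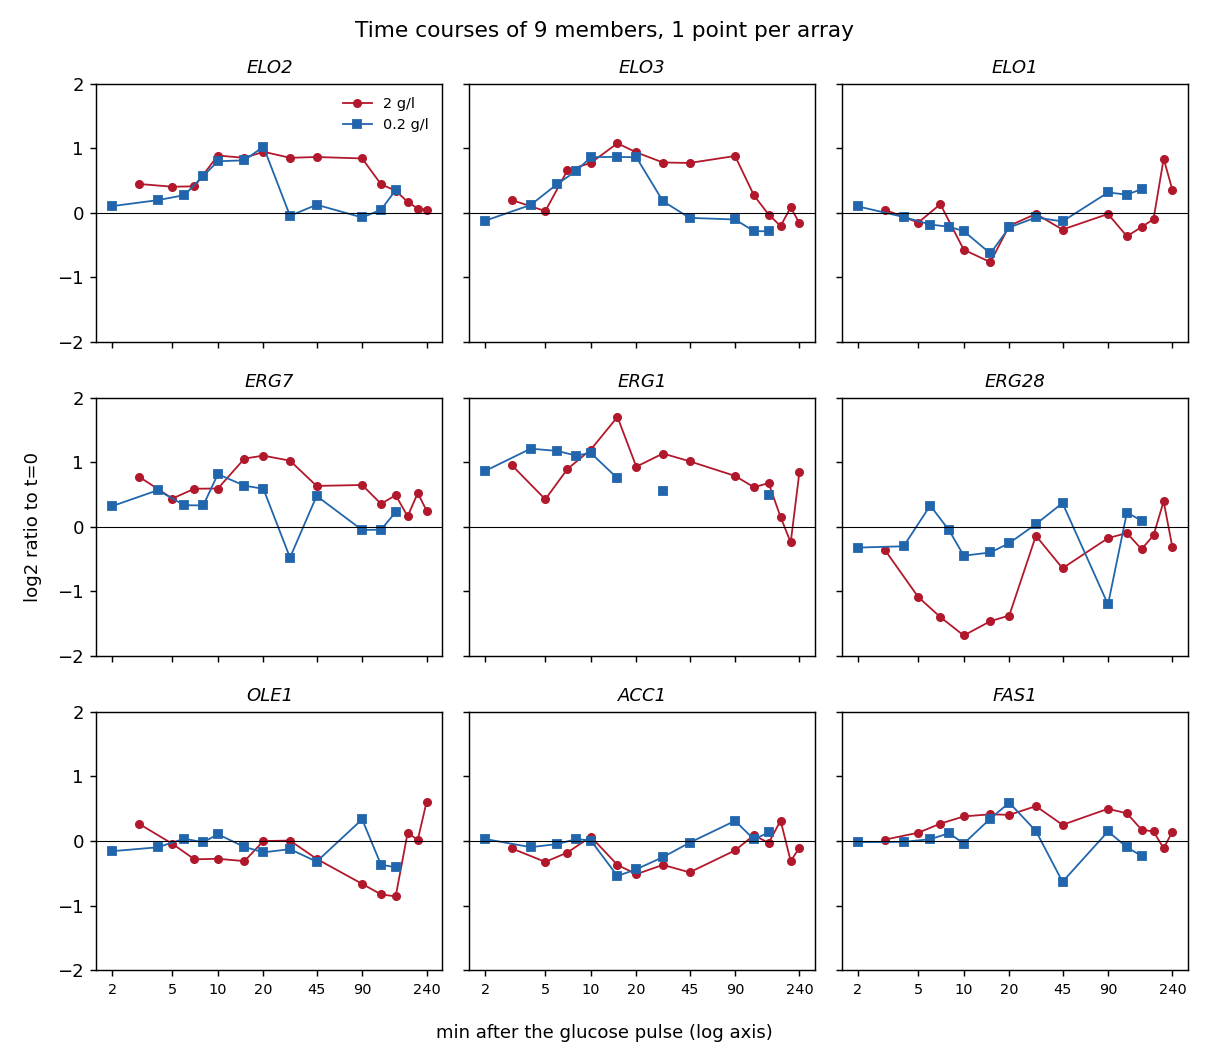
Log2 ratio to t=0 of 9 genes against min after the pulse (log axis), 1 point per array, circles for 2 g/l and squares for 0.2 g/l glucose. ELO2, ELO3 and ERG7 reach about 1 between 10 and 45 min after 2 g/l, ERG28 is lowest at 10 min (-1.68), and OLE1 is lowest at 90 to 150 min after 2 g/l (-0.66 to -0.86). After 0.2 g/l ELO2 and ELO3 lie at or below 0.18 from 30 to 120 min.

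To compare the branches, the median of the 22 sterol enzymes tested was set against the median of the 8 fatty acid enzymes on each array, as a description without a test. The sterol median was higher on all 4 middle arrays after 2 g/l, by 0.09, 0.28, 0.27 and 0.43 at 15, 20, 30 and 45 min. The window means were 0.19 ± 0.21 for the sterol enzymes and -0.078 ± 0.16 for the fatty acid enzymes, a difference of 0.27 ± 0.14 (SD, n = 4). With means in place of medians, which give ELO2 and ELO3 more weight, the difference was 0.044. Early after 2 g/l the difference was 0.015 ± 0.074 (SD, n = 4), late -0.067 ± 0.096 and last -0.046 ± 0.086 (SD, n = 3 each), with neither branch above on all arrays.

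Early after 0.2 g/l the sterol median was higher on 5 of 5 arrays, by 0.11 ± 0.021 (SD, n = 5), with 0.15 ± 0.054 for the sterol and 0.046 ± 0.048 for the fatty acid enzymes. With means in place of medians that difference was 0.027. The difference was 0.094 ± 0.14 in the middle (SD, n = 4) and -0.019 ± 0.25 in the late window (SD, n = 3). Over all 26 arrays it was 0.063 ± 0.15, and the sterol median was higher on 18. By count, 5 of 24 sterol genes tested rose and 1 fell in the 2 g/l middle window, against 3 and 1 of 9 fatty acid genes (25% and 44.4% called, beside 43.8% of all genes).

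**Figure D3:**
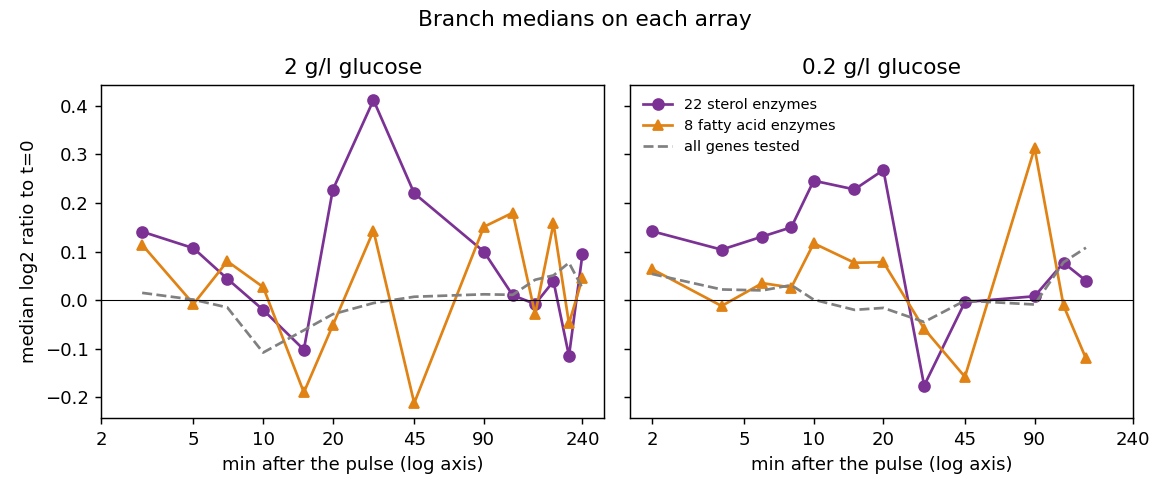
Median log2 ratio to t=0 of the 22 sterol enzymes (circles) and the 8 fatty acid enzymes (triangles) on each array, with the median of all genes tested (dashed), against min after the pulse (log axis), 2 g/l at left and 0.2 g/l at right. The sterol line lies above the fatty acid line from 15 to 45 min after 2 g/l and from 2 to 20 min after 0.2 g/l, and the lines cross at later times.

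Between the pulses, none of the 33 members differed in the early window by limma, against 0.484% of all genes, with 4 at an unadjusted p under 0.05. In the middle window 2 members differed, both higher after 2 g/l, against 14.8% of all genes (8.53% higher, 6.25% lower). In the late window it was 0 against 3.03%, with 5 members at an unadjusted p under 0.05. The middle values were 1.06, 1.10, 1.02 and 0.63 after 2 g/l and 0.64, 0.59, -0.48 and 0.48 after 0.2 g/l for ERG7, and 0.28, 0.24, 0.17 and -0.27 after 2 g/l and -0.23, -0.65, -0.93 and -0.38 after 0.2 g/l for NCP1. The windows of ERG7 overlapped by 1 array of 2 g/l (0.63, below the highest 0.2 g/l value of 0.64), and those of NCP1 by 1 array of 2 g/l as well. The differences were 0.65 ± 0.19 for ERG7 (SE; adjusted p = 0.0282) and 0.65 ± 0.18 for NCP1 (SE; adjusted p = 0.019). At 30 and 45 min GAL2 was at 0.37 and 0.36 after 0.2 g/l, but at -3.99 and -4.12 after 2 g/l.

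Neither difference was kept without the 30 and 45 min arrays of 0.2 g/l (0.34, adjusted p = 0.226 for ERG7, and 0.55, adjusted p = 0.102 for NCP1). Without single arrays, that of ERG7 was lost when the array of 15, 20 or 30 min after 2 g/l (adjusted p = 0.0744, 0.0893 and 0.063) or of 30 min after 0.2 g/l (0.0928) was left out. That of NCP1 was lost without the array of 15 or 20 min after 2 g/l (0.0608 and 0.0633) or of 30 min after 0.2 g/l (0.0642).

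Between consecutive windows after 2 g/l, none of the 33 members differed from early to middle, against 2.1% of all genes (0.503% higher, 1.6% lower), with 3 at an unadjusted p under 0.05. From middle to late 2 members were lower, ERG3 and OLE1, against 4.26% of all genes (3.46% higher, 0.8% lower), and from late to last 1 was higher, OLE1, against 1.25% (1.04% higher, 0.205% lower). After 0.2 g/l 1 member differed between the middle and the early window, against 6.22% of all genes (1.14% higher, 5.08% lower). This was ECM22, by 0.50 ± 0.13 (SE; adjusted p = 0.0255), and the result was lost without the array of 4, 6, 8, 20 or 30 min (adjusted p from 0.0522 to 0.0765) or those of 30 and 45 min (0.0901). Between the late and the middle window none of the members differed, against 1.9% of all genes (1.27% higher, 0.633% lower), with 4 at an unadjusted p under 0.05. Without the 30 and 45 min arrays 6 members differed there, with ACC1 (0.65) and ELO1 (0.75) higher and ELO2 (-0.81), ELO3 (-1.09), ERG7 (-0.57) and FAS1 (-0.53) lower in the late window. The 1.9% belongs to the fit with all arrays, and no share of all genes is given here for the fit without those arrays.

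The 5 oxygen-using enzymes tested (ERG11, ERG25, ERG3, ERG5 and OLE1) had a median of -0.25 in the 2 g/l late window, against 0.024 for all genes. All 5 were below 0, between -0.78 and -0.011, but only OLE1 passed (20% called, against 14.5% of all genes). Their median was also -0.25 in the 2 g/l last window and -0.15 late after 0.2 g/l (0.048 and 0.030 for all genes), with 4 below 0 each. It was -0.084 early and 0.19 in the middle after 2 g/l, and 0.012 early and -0.082 in the middle after 0.2 g/l. In the late minus middle difference after 2 g/l all 5 were again below 0, with a median of -0.44 against 0.006 for all genes. ERG3 and OLE1 passed (40% called, against 4.26% of all genes), but each of these calls was lost without any of several single arrays, as given above. ERG1, also an oxygen-using enzyme, was not tested and stood at 0.61 to 0.79 in that late window.

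Other lipid genes were read from lists written from general knowledge of yeast. Of 11 acyl-CoA and elongation partner genes tested, 3 rose in both the early and the middle window of the 2 g/l pulse, namely IFA38, TSC13 and FAA3. UBX2, which encodes a membrane protein of ER-associated degradation, fell in both, to -0.52 early and -0.77 in the middle window, the early call being lost without the 7 or 10 min array (adjusted p = 0.091 and 0.206). FAT1, a fatty acyl-CoA synthetase and transport gene, was called lower early on 2 values, -4.42 and 0.04. The shares called were 45.5% early and 36.4% in the middle window, near the 37.6% and 43.8% of all genes. IFA38 and TSC13 encode the ketoreductase and the enoyl reductase of the elongation cycle begun by ELO2 or ELO3. PHS1, another elongation partner of this list, had -0.05, -0.21, 0.01 and 0.08 in the 2 g/l middle window and passed in no window. IFA38 had 0.36, 0.76, 0.71 and 0.80 in the middle window, a mean of 0.66 ± 0.20 (SD, n = 4; adjusted p = 0.000105), and all 14 of its arrays after 2 g/l were above 0. The level of IFA38 was still 0.50, 0.76 and 0.39 at 180, 210 and 240 min. It was called higher in that last window too, a call lost without the 210 min array (adjusted p = 0.2). TSC13 averaged 0.45 ± 0.11 early (SD, n = 4; adjusted p = 0.0011) and 0.30 ± 0.20 in the middle window (SD, n = 4; adjusted p = 0.0127, and 0.123 without the 20 min array), and the middle value of TSC13 was -0.11 with the last window as baseline. IFA38 and TSC13 passed in no window of the 0.2 g/l pulse, and FAA3 was called lower in its middle window (-0.37 ± 0.16, SD, n = 4; adjusted p = 0.0111, lost without the 20 or 30 min array, 0.0574 and 0.0508).

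Sphingolipid synthesis uses the very long chains. Of 15 sphingolipid genes tested, 4 rose and 3 fell early after 2 g/l (46.7% called, against 37.6% of all genes). The lowest early mean was that of YPC1, at -1.40. In the 2 g/l middle window 6 rose and 2 fell, with a median of 0.25 against -0.026 for all genes, and 53.3% called against 43.8%. The 2 that fell were YDC1, a ceramidase gene, at -1.06 ± 0.24 (SD, n = 4; adjusted p = 1.89e-05), and SUR1, which takes part in adding mannose to sphingolipids, at -0.49 ± 0.17 (SD, n = 4; adjusted p = 0.00624, and 0.0519 without the 15 min array). LCB1 and LCB2, the subunits of serine palmitoyltransferase that opens the pathway, averaged 0.47 ± 0.22 (adjusted p = 0.00309) and 0.47 ± 0.23 (adjusted p = 0.0012) there, and LAG1, a ceramide synthase subunit, 0.52 ± 0.13 (SD, n = 4 each; adjusted p = 0.000147). TSC10, the ketosphinganine reductase gene, averaged 0.61 ± 0.21 (SD, n = 4; adjusted p = 0.00595, and 0.0525 without the 15 min array). AUR1, which makes inositol phosphorylceramide, had 0.54, 0.88, 0.41 and 0.34, a mean of 0.54 ± 0.24 (SD, n = 4; adjusted p = 0.00231). The call of LAC1, also among the 6 that rose, was lost without any 1 of the middle arrays (adjusted p from 0.0515 to 0.098). In the 0.2 g/l middle window 3 rose and 0 fell (20% against 39.5% of all genes), among them LCB1 (0.58 ± 0.17, SD, n = 4; adjusted p = 0.00114) and AUR1 (0.45 ± 0.34, SD, n = 4; adjusted p = 0.0107, and 0.11 without the 20 min array). Without the 30 and 45 min arrays these means were 0.70 for LCB1 (adjusted p = 0.00275) and 0.72 for AUR1 (0.00242).

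In the 2 g/l late window, when OLE1 was lowest, 8 of 17 phospholipid genes tested rose and 0 fell (47.1% called, against 14.5% of all genes, 9.03% higher and 5.51% lower), with a median of 0.74 against 0.024 for all genes. The early and middle windows after 2 g/l had 3 and 2 called (17.6% and 11.8%, against 37.6% and 43.8% of all genes). The early, middle and late windows after 0.2 g/l had 3, 6 and 1 (17.6%, 35.3% and 5.9%, against 29.8%, 39.5% and 7.54%). These shares were below those of all genes. INO1, the inositol phosphate synthase gene, had 0.96, 1.98 and 2.36 at 90, 120 and 150 min, a mean of 1.77 ± 0.73 (SD, n = 3; adjusted p = 0.000388). OPI3, a phospholipid methyltransferase gene, had 1.76, 1.29 and 1.37, a mean of 1.47 ± 0.25 (SD, n = 3; adjusted p = 1.27e-05). PSD1, a phosphatidylserine decarboxylase gene, averaged 1.11 ± 0.057 (SD, n = 3; adjusted p = 0.000886). The other 5 were CHO2, CDS1, CHO1, CKI1 and EPT1, with means of 0.67 to 0.98. Without the 90, 120 or 150 min array the count was 5 each time, and against the last window it was 1. At 180 min INO1 and OPI3 were still at 2.40 and 1.47, and at 240 min they were at -0.37 and -0.03.

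**Figure D4:**
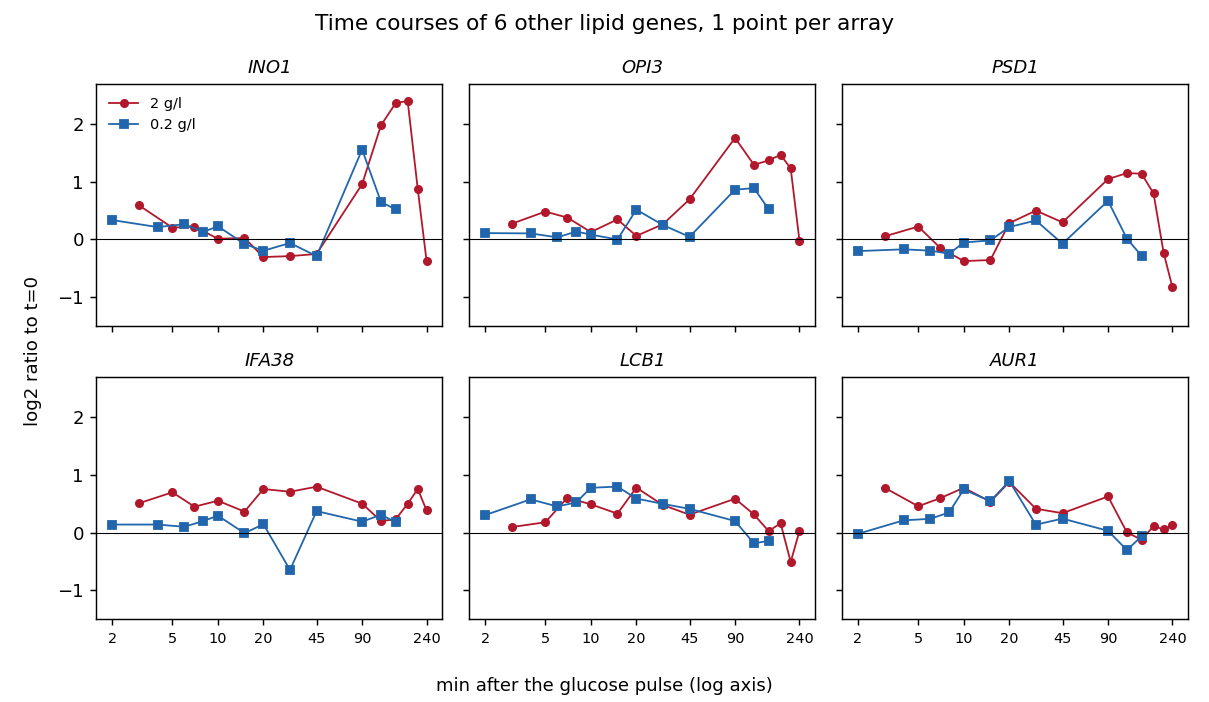
Log2 ratio to t=0 of 6 other lipid genes against min after the pulse (log axis), 1 point per array, circles for 2 g/l and squares for 0.2 g/l glucose. INO1, OPI3 and PSD1 are highest at 90 to 180 min after 2 g/l, up to 2.40 for INO1, while IFA38, LCB1 and AUR1 are above 0 at 15 to 45 min after 2 g/l.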

How the data were processed

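The authors deposited 1 table of log2 ratios per spot for 26 arrays. The base and the direction (Cy5 over Cy3) were inferred from the values and the labels, and no background correction or normalization method is given in the sources used here. Of 10752 spots, 6834 had a gene name. All 5606 genes matched the R64 annotation, used for names only, and spots of a gene were averaged. Of the members, 34 matched by symbol and FEN1 and SUR4 by older symbols (ELO2 and ELO3). No pair of member spots had a median absolute difference over 0.5.

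A linear model with 1 mean for each of the 7 windows was fitted over all 26 arrays (limma 3.58.1, R 4.3.3, lmFit and eBayes, two-sided) to the 5372 genes that had 2 or more values per window. Benjamini-Hochberg adjustment ran over all of these genes within each comparison, with a threshold of 0.05, and the fit was tested on simulated data. Means are given with the SD over the arrays of a window, and differences with the SE of the fit. The number of arrays limits the precision, and whether all arrays of a pulse shared 1 extract of the t=0 culture is not known. Tables and figures used pandas 2.3.3, numpy 2.4.6 and matplotlib 3.10.9 under Python 3.11.15.

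The members, gene lists, windows and tests were chosen with earlier results of these data known. Every member is accounted for. From each other lipid list the 3 called genes with the largest absolute mean per window may be named, and any gene named outside that rule was chosen after its values were seen. Alternatives were array medians subtracted, quantile normalization, the median of spots, values on all arrays, robust eBayes, arrays with few missing genes, fits of only the windows compared, the last or late window as baseline, same times paired, and each array left out.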

Additional observations from a re-analysis of the deposited data

Results flagged for a closer look

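In groups of 4 or 5 arrays, 11 of 129 sets of a member's values in a window held 1 array far from the others by Dixon's criterion, which chance alone flags in about 1 of 20 groups. After 0.2 g/l the array of 45 min gave the low values of ERG11 (-3.98), ERG5 (-1.74) and ERG13 (-0.21), the array of 30 min that of ERG7 (-0.48), and the array of 4 min that of HMG2 (-1.31). After 2 g/l the array of 45 min gave the low values of IDI1 (-0.071) and ERG7 (0.63), and the array of 15 min those of ERG8 (0.20) and ERG25 (-0.15). The high values were both of ELO2 after 2 g/l, at 10 min (0.89) and at 20 min (0.95), and the middle window of ELO2 was narrow, with an SD of 0.046.

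The pulses differed in the middle window for ERG7 (2 g/l minus 0.2 g/l, 0.65) and NCP1 (0.65) by limma's test of the difference. Neither passed without the 30 min array of 0.2 g/l, and both were kept without that of 45 min.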

How the results depend on the processing

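With t=0 replaced as baseline by the last (2 g/l) or late (0.2 g/l) window of the same pulse, the members called were 2 early (ERG28 and ECM22) and 1 late (OLE1) after 2 g/l, and 0 early and 0 middle after 0.2 g/l. Of the members called in the 2 g/l middle window, ERG8, ERG28 and FAS1 were not called against the last window. Fits of only the windows compared gave 4 early after 2 g/l, 0 middle and 0 late after 0.2 g/l, 0 for the middle difference between pulses, 0 for last minus late after 2 g/l and 0 for middle minus early after 0.2 g/l. Quantile normalization gave 3 in the last window after 2 g/l and 4 in the late window after 0.2 g/l, 0 and 1 for the middle and late differences between pulses, and 1 for late minus middle after 2 g/l. Genes with values on all arrays gave 2 last and 1 for middle minus early after 2 g/l, and subtracting array medians gave 1 for the same difference. Without arrays lacking over 5% of genes the counts were 2 last after 2 g/l, 4 middle after 0.2 g/l, 0 for the middle difference between pulses, and 0 for middle minus early and 1 for late minus middle after 0.2 g/l. Without the 30 and 45 min arrays of 0.2 g/l they were 0 for the middle difference between pulses, and 2 for middle minus early and 6 for late minus middle after 0.2 g/l. Pairing the same times of both pulses, as a time block, left 0 for the middle difference. No paired analysis by replicate number was possible because the labels give none.

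Leaving out 1 array gave counts of 6 to 8, 8 to 13, 2 to 3 and 0 in the 4 windows after 2 g/l, and 3 to 7, 3 to 9 and 0 in the 3 after 0.2 g/l. The differences between pulses gave 0, 0 to 3 and 0 early, middle and late, those within 2 g/l 0 to 1 each, those within 0.2 g/l 0 to 2 and 0 to 4, and the F tests 15 to 18 after 2 g/l and 8 to 13 after 0.2 g/l. The phospholipid count late after 2 g/l was 5 without any 1 late array and 1 against the last window. The sterol minus fatty acid difference with 1 array left out ranged after 2 g/l from -0.019 to 0.035 early, 0.21 to 0.33 in the middle, -0.11 to -0.015 late and -0.093 to -0.009 last, and after 0.2 g/l from 0.10 to 0.12, 0.062 to 0.17 and -0.11 to 0.12. Means in place of medians moved the middle value after 2 g/l to 0.044 and the early value after 0.2 g/l to 0.027, which was also 0.13 over genes with values on all arrays and 0.078 with the regulators. Against the last window after 2 g/l the sign turned for ERG26 late (-0.071), LAG1 early (-0.031) and late (-0.023), ROX1 middle (0.10) and TSC13 middle (-0.11). Against the late window after 0.2 g/l it turned for ARE2 (0.40), CDC43 (-0.29), CHO2 (-0.10) and OPI1 (-0.048) early and CDC43 (-0.030) and OAR1 (0.058) in the middle window. INO4 in that window ran from -1.86 to 0.008 with 1 array left out, and was at 0.008 without the 30 min array. The causes were not tested.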

Other observations

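ARE2, the main sterol esterification enzyme, fell after 0.2 g/l, with means of -0.59 ± 0.24 early (SD, n = 5; adjusted p = 0.000437), -1.04 ± 0.14 in the middle window (SD, n = 4; adjusted p = 7.18e-06) and -0.99 ± 0.19 late (SD, n = 3; adjusted p = 0.00031), while late after 2 g/l it averaged 0.43 ± 0.14 (SD, n = 3; adjusted p = 0.0385), a call lost without the 90, 120 or 150 min array (adjusted p = 0.111, 0.133 and 0.2). With the late window of the 0.2 g/l pulse as baseline the early value of ARE2 was 0.40. After 0.2 g/l ARE2 was already at -0.47 at 2 min and still at -1.09 at 150 min. A lasting fall and a high level in the t=0 sample itself cannot be told apart here. YEH2, a steryl ester hydrolase gene, rose in the early, middle and late windows after 2 g/l, with a middle mean of 0.75 ± 0.20 (SD, n = 4; adjusted p = 0.000149), and in the early and middle windows after 0.2 g/l. For YEH2 the late call was lost without the 90 or 150 min array (adjusted p = 0.127 and 0.0899), the early call after 0.2 g/l without that of 8 min (0.0667), and the middle call after 0.2 g/l without that of 15 or 20 min (0.0682 and 0.0504). Of the 19 genes of sterol esters, transport and feedback tested, 5 rose and 3 fell in the 2 g/l middle window (42.1% against 43.8% of all genes), and 4 rose and 8 fell in that after 0.2 g/l (63.2% against 39.5%). In the latter window the NSG1 call, with -5.34 at 30 min, was lost without that array (-0.096, adjusted p = 0.569). Those of HES1 and ARE1 were lost without the 15 min array (0.206 and 0.0578). NCR1 was lost without 15 or 20 min, DAP1 without 15, 20 or 30 min, and KES1 and NPC2 without 20 or 30 min. ARE2, PDR11, HRD1 and SUT2 kept their calls without each single array. No count is given here without both arrays that stand apart in that window.

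RER2, which makes dolichol from farnesyl diphosphate, rose early after both pulses, with means of 0.95 ± 0.23 for 2 g/l (SD, n = 4; adjusted p = 0.000277) and 0.80 ± 0.13 for 0.2 g/l (SD, n = 5; adjusted p = 0.000404). CDC43, a subunit of the enzyme that attaches a geranylgeranyl group to proteins, rose in every window except the last after 2 g/l, with middle means of 0.48 ± 0.12 for 2 g/l (adjusted p = 8.46e-05) and 0.59 ± 0.089 for 0.2 g/l (SD, n = 4 each; adjusted p = 4.28e-05). After 2 g/l the early call of CDC43 was lost without the 10 min array (adjusted p = 0.0733) and the late call without that of 90 or 120 min (0.0941 and 0.0611), and with the late window as baseline its values after 0.2 g/l were -0.29 early and -0.030 in the middle window. Of 10 isoprenoid branch genes tested, 2 rose and 1 fell early after 2 g/l, and 2 rose and 0 fell early after 0.2 g/l, shares of 30% and 20% that lie below the 37.6% and 29.8% of all genes. The 1 that fell was SRT1, at -0.91, a call lost without the 7 min array (-0.44, adjusted p = 0.258). SRT1 was also called lower in the 0.2 g/l middle window (-1.29), and its 2 spots differed by a median of 0.54. Of 8 genes of mitochondrial fatty acid synthesis, 0 rose and 4 fell early after 2 g/l (50% against 37.6% of all genes, 20.8% lower), among them CEM1, a mitochondrial ketoacyl synthase gene (-2.35 ± 1.53, SD, n = 4; adjusted p = 0.000206). Of the 4, PPT2 was lost without the 5 min array (adjusted p = 0.111) and HTD2 without that of 5 or 10 min (0.0973 and 0.244). Of 9 oxygen and heme genes tested, 0 rose and 2 fell early after 2 g/l (22.2% against 37.6% of all genes). One of the 2 was HEM13, the oxygen-using coproporphyrinogen oxidase gene of heme synthesis, with a mean of -0.69 ± 0.80 (SD, n = 4; adjusted p = 0.0103) that was -0.34 without the 10 min array (adjusted p = 0.191) and was also lost without that of 7 min (0.0589).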
